A study of Homo sapiens with 6 samples.

Results

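Genes of the tricarboxylic acid (TCA) cycle, of serine, one-carbon, methionine and amino acid metabolism and of the ATF4 response were compared between KM12SM and SW620 colorectal cancer cells. The members are 56 gene symbols of these pathways, picked by function with earlier results of these data known. A probe set belonged to them if its annotated symbol was one of the 56. In all, 52 of the 21448 probe sets on the array met this rule, and they measured 51 of the 17687 genes named in the annotation, CBS with 2 probe sets. FH, GLS2, GPT2, SHMT1 and ODC1 had no annotated probe set and were not analysed here. Total RNA of each line was hybridised to 3 Clariom S human arrays, 6 in all. KM12SM came from the KM12 line by repeated passage through mice and forms liver metastases. SW620 has its origin in a tumour-bearing lymph node and seldom colonises the liver. For both lines the methods give the same culture, DMEM with serum and antibiotics, and name no treatment of the cells used for RNA. The medium and cell density when the RNA was taken are not stated. The deposited values are log2 signals from the RMA algorithm, which normalises the arrays and summarises the probes of each gene. Every difference below is KM12SM minus SW620 on this log2 scale, so that 1 is a 2-fold difference, and levels of different genes were not set against each other, because probes differ in brightness. A number in parentheses after such a difference is its standard error from limma. The methods describe the RNA replicates as independent, 3 for each line, without saying whether the RNA came from separate cultures. The p-values therefore reflect only how far these arrays scatter, which may be technical.

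The TCA cycle oxidises acetyl-CoA in the mitochondrion and supplies citrate, 2-oxoglutarate and oxaloacetate for lipid and amino acid synthesis. Serine made from a glycolytic intermediate gives 1-carbon units to folate, which feed nucleotide synthesis and the methionine cycle, and homocysteine from that cycle can leave through transsulfuration to cysteine. The transcription factor ATF4, translated when amino acids are short or the endoplasmic reticulum is stressed, induces many of these enzymes, and colorectal cancer cells use these routes during growth.

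Arrays of the same line correlated with Pearson r of 0.981 to 0.992 over all probe sets, against 0.919 to 0.926 between lines. Replicate 3 lay lower for these genes in both lines. Its member signals differed from the mean of the other arrays of the line by a median of -0.22 in KM12SM and -0.24 in SW620. The upper quartile of all probe sets was also lowest in replicate 3, at 8.26 in KM12SM and 8.17 in SW620. On the other arrays it was 8.32 to 8.36. The epithelial markers EPCAM, KRT8, KRT18 and KRT19 stood at or above the 97th percentile of the probe sets in both lines, while CDH1, the epithelial cadherin, had a mean of 9.25 in KM12SM and 5.55 in SW620. Of the other epithelial markers, CDX2 was higher in KM12SM by 0.94 (0.17) and VIL1 was lower, with -0.81 (0.21). Of 14 measured markers of fibroblasts, leukocytes, endothelium and hepatocytes, 13 did not pass the test and SERPINA1 was lower in KM12SM, with signals of 3.63 to 8.76 over the 14. Their part in the results was not tested.

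The members were divided between the lines. With limma fitted to all probe sets and a threshold of 0.05 on the adjusted p, 12 of the 51 genes were called higher in KM12SM, 12 were called lower and 27 did not pass. The call share was thus 47.1%, where 25% of all probe sets were called (12.6% higher and 12.4% lower). Bright probe sets were called more often: among probe sets with a mean log2 signal of at least 8, 35.6% were called, and 19 of the 41 members above that level (46.3%). The median difference of the members was 0.05, beside 0.01 for all probe sets, and the median size without sign was 0.55, beside 0.26. For 35 members (68.6%) every array of one line was above every array of the other, where 37.7% of all probe sets were apart in this way, and 53.3% of those with a mean of at least 8. KM12SM was the higher line in 18 of the 35 and the lower in 17. A difference in the RNA of a line can be a difference per cell or in the share of cells that express the gene, and these cannot be told apart here. Without replicate 1 or without replicate 2 of SW620, 7 members were called lower. The methods' t-test called 14 higher and 13 lower at an unadjusted p under 0.05, and 6 higher and 6 lower after Benjamini-Hochberg adjustment.

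**Figure D1:**
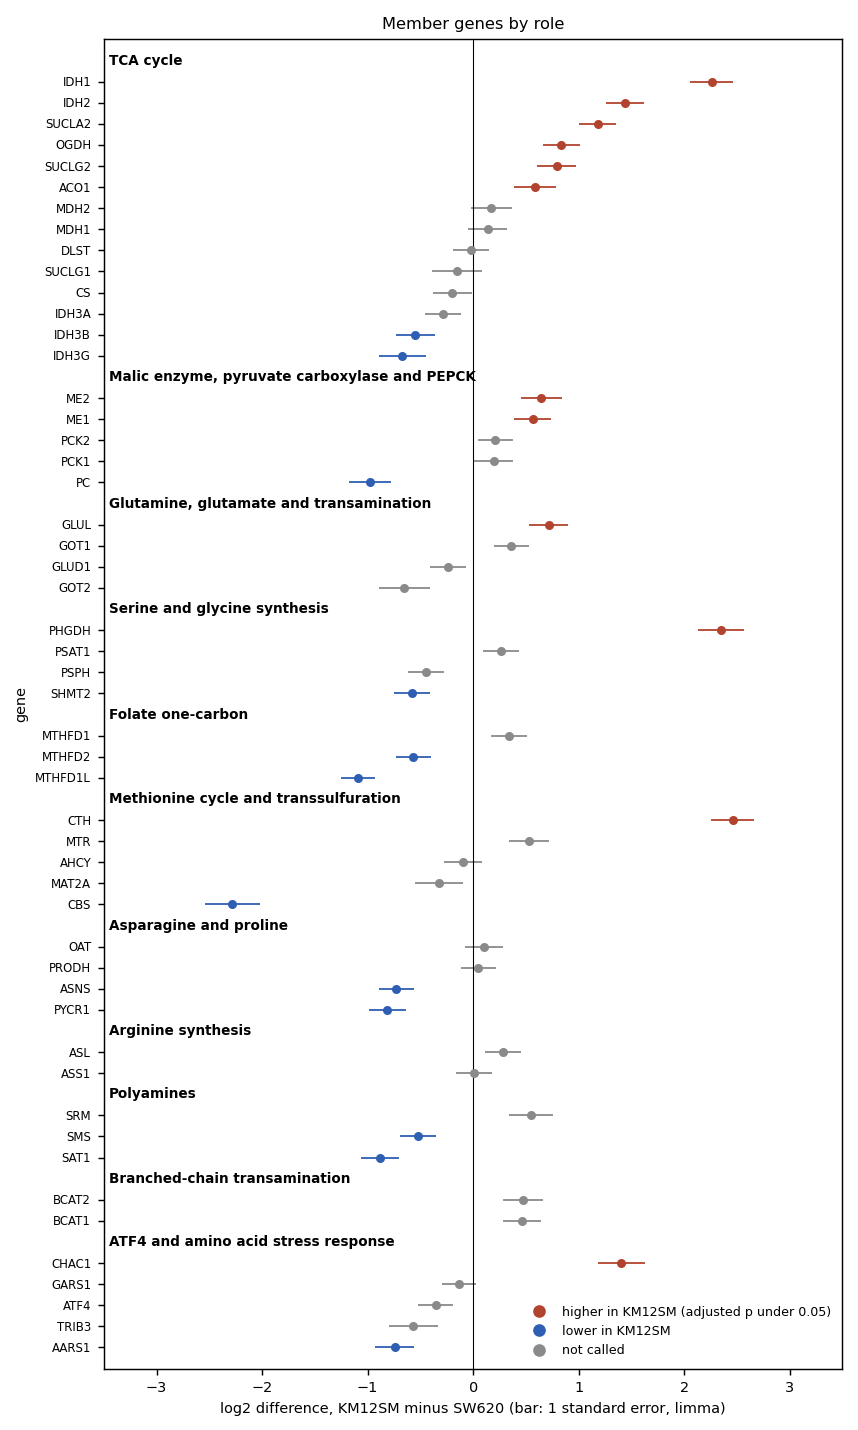
Log2 difference (KM12SM minus SW620, horizontal axis) of the 51 member genes, grouped by role, with 1 standard error from limma on 3 arrays per line. The points run from -2.28 for CBS to 2.46 for CTH, and 12 are called higher (red), 12 lower (blue) and 27 are not called (grey).

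At least 2-fold differences were called for 8 members. CTH, PHGDH, IDH1, IDH2, CHAC1 and SUCLA2 were higher in KM12SM, and CBS and MTHFD1L were lower. Among all probe sets, 5.58% were called higher and 4.87% lower by at least 2-fold.

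**Figure D2:**
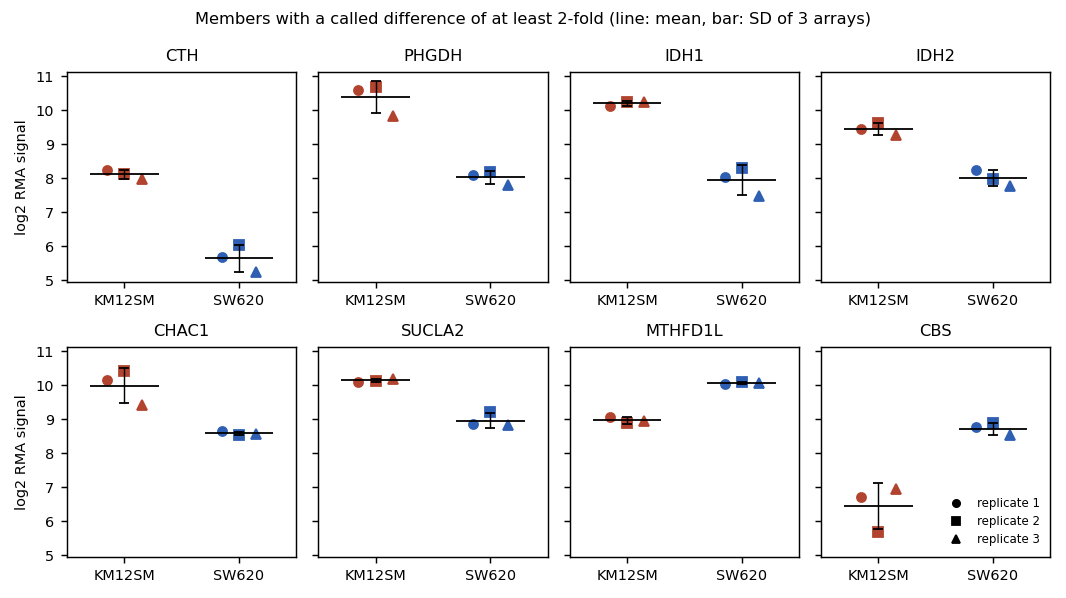
Log2 RMA signal (vertical axis) of the 8 members with a called difference of at least 2-fold on each of the 3 KM12SM (red) and 3 SW620 (blue) arrays, with the mean (line) and SD (bar). In each panel the lines are apart, and the gap between the nearest arrays is widest for CTH (1.94) and narrowest for CHAC1 (0.76).

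The ATF4 response did not move as a block. ATF4 itself had log2 signals of 10.08, 10.42 and 10.10 on the KM12SM arrays and 10.64, 10.52 and 10.51 on the SW620 arrays. All 3 KM12SM values were the lower ones, but the difference of -0.36 (standard error 0.17) missed the threshold (limma, adjusted p = 0.153). Of 13 members known as ATF4 targets, 3 were higher (CTH, PHGDH, CHAC1), 5 lower (MTHFD2, SHMT2, ASNS, AARS1, PYCR1) and 5 not called (PSAT1, PSPH, GARS1, TRIB3, PCK2), with a median of -0.45. These 13 were listed after the values were seen, so their counts and median describe the list and test nothing. Of all probe sets 25% were called, and 35.6% of those with a mean log2 signal of at least 8. CHAC1, which degrades glutathione, had 10.15, 10.41 and 9.41 in KM12SM and 8.65, 8.55 and 8.56 in SW620. It was 2.65-fold higher in KM12SM (log2 1.40, standard error 0.22, adjusted p = 0.000167 from limma), and replicate 3 was the lowest KM12SM array. AARS1, the cytosolic alanyl-tRNA synthetase, had 10.50, 10.52 and 10.18 against 11.18, 11.37 and 10.88. This is a difference of -0.74 (standard error 0.18, adjusted p = 0.00669 from limma). GARS1, the glycyl-tRNA synthetase, differed by -0.13 (standard error 0.16), and the arrays of the lines met at 11.25. TRIB3, a pseudokinase that restrains ATF4, had 9.12, 9.37 and 8.30 against 9.53, 9.54 and 9.42. Its difference of -0.57 (standard error 0.23) did not pass (adjusted p = 0.0897 from limma), and replicate 3 of KM12SM lay far below the other arrays. TRIB3 passed without replicate 2 of KM12SM (-0.79, adjusted p = 0.0240) and was at -0.25 without replicate 3.

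ATF4 binds with C/EBP proteins at composite elements that contain the letters TGATGNAA. These letters were searched on both strands in RefSeq promoter windows (GRCh38.p14, 250 bases before to 50 after a start), which matched 48 of the 56 members. A match was found for 7 of 44 measured member genes (15.9%), against 4.46% of all 27305 gene symbols in the table. They were GOT1, MTHFD1L, ASNS, BCAT1, AARS1, GARS1 and CHAC1. Of these, CHAC1 was higher in KM12SM, ASNS, AARS1 and MTHFD1L were lower and 3 were not called. ATF4 targets are among the members, and 4 of 10 measured target genes (40.0%) had a match, so the member share is no test of the element. By window, a match was in 4 of 14 for targets (28.6%) and 5 of 53 for other measured members (9.43%). The latter include overlapping windows of MTHFD1L. Of all 35116 windows, 3.62% had a match. A match is a description of letters and does not show a bound site. The windows of the 4 called genes are printed to set the same letters beside opposite differences, with the match in capitals. For CHAC1, ASNS and AARS1 they hold the 250 bases before the start, and for MTHFD1L, which has several annotated starts near its match and is not among the 13 targets, 30 bases around it.
CHAC1 (higher, chr15:40953221-40953470, + strand): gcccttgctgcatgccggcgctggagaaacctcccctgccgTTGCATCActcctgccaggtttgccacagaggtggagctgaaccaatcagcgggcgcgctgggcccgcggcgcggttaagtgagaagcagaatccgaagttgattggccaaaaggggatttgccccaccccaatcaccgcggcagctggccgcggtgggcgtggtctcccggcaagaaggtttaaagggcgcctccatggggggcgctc
ASNS (lower, chr7:97872409-97872658, - strand): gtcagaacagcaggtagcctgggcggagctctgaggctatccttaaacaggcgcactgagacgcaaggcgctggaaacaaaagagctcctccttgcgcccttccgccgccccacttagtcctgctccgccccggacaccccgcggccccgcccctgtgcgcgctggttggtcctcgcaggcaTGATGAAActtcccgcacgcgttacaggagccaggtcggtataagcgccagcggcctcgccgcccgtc
AARS1 (lower, chr16:70289507-70289756, - strand): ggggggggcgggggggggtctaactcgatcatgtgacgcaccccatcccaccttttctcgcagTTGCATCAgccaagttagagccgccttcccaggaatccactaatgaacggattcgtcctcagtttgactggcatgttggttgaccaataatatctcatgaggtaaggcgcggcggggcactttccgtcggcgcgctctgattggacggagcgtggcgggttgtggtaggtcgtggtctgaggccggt
MTHFD1L (lower, chr6:150866346-150866375, + strand): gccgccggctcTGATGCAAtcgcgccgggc
In CHAC1 and AARS1 the match begins 209 and 187 bases before the start and reads TTGCATCA, the reverse complement of TGATGCAA. In ASNS it begins 68 bases before the start and reads TGATGAAA.

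Other genes of the ATF4 pathway were also split. Among the 26 with a probe set there were 7 higher genes, 6 lower ones and 13 that did not pass, with a median of 0.20. DDIT4, an inhibitor of mTORC1, was higher by 2.19 (standard error 0.19) and SLC7A11, the cystine transporter, by 2.13 (0.18). STC2, a secreted stanniocalcin, differed by -3.08 (0.20), and the arginine transporter SLC7A1 was higher by 1.58 (0.18). The kinases that activate the pathway, EIF2AK1, EIF2AK2, EIF2AK3 and EIF2AK4, did not pass, with differences of -0.09 to 0.47. EIF2AK1, with the 0.47, passed without replicate 3 of KM12SM (adjusted p = 0.0279 from limma).

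**Figure D3:**
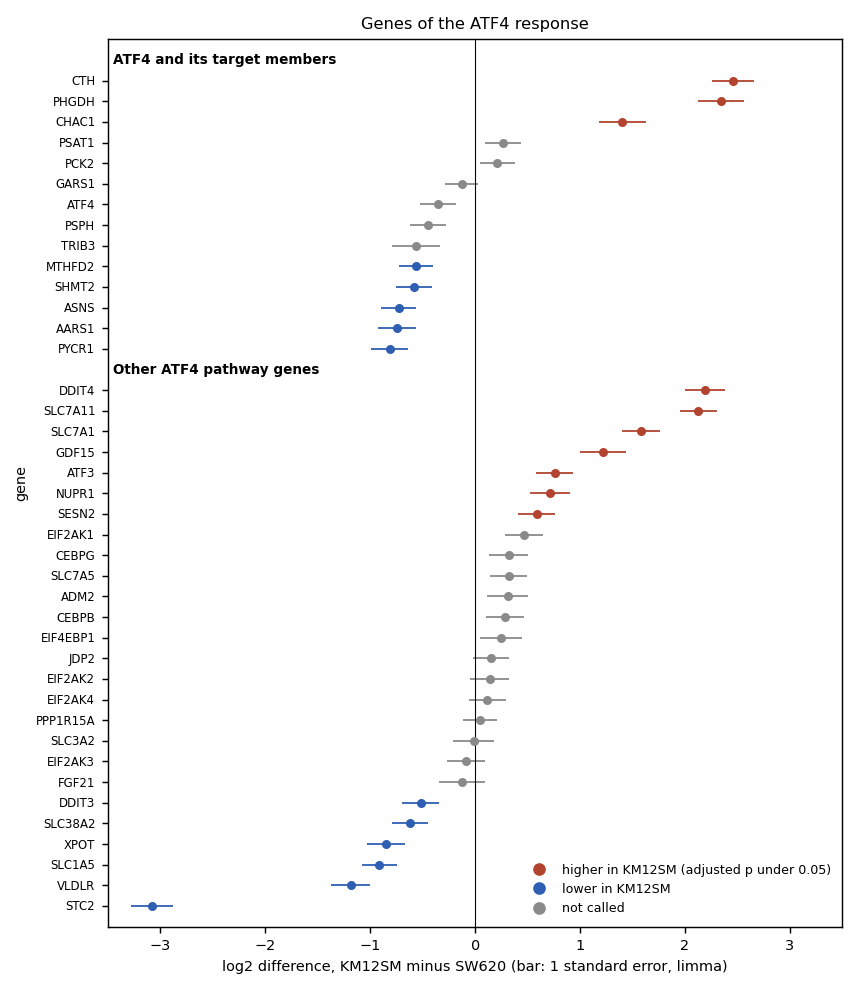
Log2 difference (KM12SM minus SW620, horizontal axis, bar 1 standard error from limma) of ATF4, its 13 target members and 26 other genes of its pathway. Both groups of genes hold called genes on either side of 0, from CTH (2.46) to PYCR1 (-0.81) among the members and from DDIT4 (2.19) to STC2 (-3.08) among the others.

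Along serine synthesis only the first enzyme was called, and it was higher in KM12SM. PHGDH, which oxidises 3-phosphoglycerate, had 10.61, 10.69 and 9.84 in KM12SM and 8.09, 8.19 and 7.82 in SW620. The lowest KM12SM array was 1.65 above the highest SW620 array. PHGDH was 5.09-fold higher in KM12SM (log2 2.35, standard error 0.22, adjusted p = 6.30e-07 from limma). PSAT1, the aminotransferase of the next step, had 11.63, 11.65 and 11.45 against 11.44, 11.39 and 11.10, a difference of 0.27 (0.17) that did not pass. PSPH, the phosphatase that releases serine, had -0.45 (0.17, adjusted p = 0.0734 from limma), and its KM12SM arrays all lay below the SW620 arrays. SHMT2, the mitochondrial enzyme that splits serine into glycine and a 1-carbon unit, was lower, at 11.16, 11.32 and 10.92 against 11.82, 11.72 and 11.60. Its difference of -0.58 (0.17, adjusted p = 0.0213 from limma) lost the call without replicate 1 or 3 of KM12SM or replicate 1 or 2 of SW620 (adjusted p up to 0.107).

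The mitochondrial folate enzymes MTHFD2 and MTHFD1L were lower in KM12SM with SHMT2, while the cytosolic MTHFD1 was not, and SHMT1 had no probe set. MTHFD2L, a relative of MTHFD2 among the other folate genes, went the other way without passing (0.52, 0.21, adjusted p = 0.0835 from limma). Its arrays were apart, and it passed without replicate 2 of KM12SM (adjusted p = 0.0399). Its SW620 mean of 5.39 stood above only 29.2% of the probe sets of that line. MTHFD1L, which makes formate in the mitochondrion, had 9.07, 8.88 and 8.96 in KM12SM and 10.04, 10.09 and 10.06 in SW620. Both sets of arrays were tight, with SDs of 0.10 and 0.03, and MTHFD1L was 2.13-fold higher in SW620 (log2 -1.09, standard error 0.16, adjusted p = 8.87e-05 from limma). MTHFD2, the dehydrogenase and cyclohydrolase before it, had 10.38, 10.56 and 10.42 against 11.07, 11.07 and 10.92. The difference was -0.57 (0.16, adjusted p = 0.0176 from limma), and the call was lost without replicate 1 of KM12SM or replicate 1 or 2 of SW620 (adjusted p up to 0.0855). MTHFD1, with all its folate activities in 1 cytosolic protein, had 11.10, 10.94 and 11.17 against 10.73, 10.89 and 10.57. Its KM12SM arrays were all above the SW620 arrays, by at least 0.05, and the difference of 0.34 (0.17) did not pass (adjusted p = 0.173 from limma).

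Of 16 other serine, glycine and folate genes, ALDH1L2 was higher, GGH, GCSH and TYMS were lower and 12 did not pass (median -0.06). ALDH1L2, which oxidises 10-formyl-folate in the mitochondrion, was higher by 1.31 (0.20). GGH, a hydrolase of folate polyglutamates, had -1.96 (0.19), and GCSH, the lipoyl protein of the glycine cleavage system, had -1.49 (0.21). TYMS, thymidylate synthase, had -0.58 (0.17) and lost its call without replicate 1 of KM12SM or replicate 1 or 2 of SW620 (adjusted p up to 0.0953 from limma).

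The enzymes of transsulfuration were opposed. CBS, which joins homocysteine and serine to cystathionine, had 6.71, 5.68 and 6.94 in KM12SM and 8.77, 8.88 and 8.53 in SW620. CTH, which splits cystathionine to cysteine, had 8.24, 8.14 and 7.97 in KM12SM and 5.70, 6.03 and 5.24 in SW620. So CBS was higher in SW620 and CTH was higher in KM12SM, with no overlap between the lines in either gene. CBS was 4.87-fold higher in SW620 (log2 -2.28, standard error 0.26, adjusted p = 5.97e-06 from limma), and its SD was larger in KM12SM (0.67) than in SW620 (0.18). The other CBS probe set had 5.40, 4.93 and 5.59 against 8.09, 8.14 and 7.76, a difference of -2.69 (0.20, adjusted p = 3.92e-08 from limma). The KM12SM mean of that probe set, 5.31, stood above 28.3% of the probe sets of the line, near the background, which may limit this difference. The annotation names CBS for both probe sets, and the gene table lists CBSL as a synonym of CBS, so signal from a near-identical copy cannot be kept apart by the probe names. CTH was 5.50-fold higher in KM12SM (log2 2.46, standard error 0.20, adjusted p = 1.46e-07 from limma). Its mean in SW620, 5.66, stood above 33.2% of the probe sets of that line, near the background of the array, so the fold may be limited by it.

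The measured genes of the methionine cycle itself, MTR, MAT2A and AHCY, did not pass. MTR, methionine synthase, had 0.53 (0.19, adjusted p = 0.0562 from limma), and its lowest KM12SM array was 0.01 above the highest SW620 array. MTR passed without replicate 3 of KM12SM or replicate 2 of SW620 (adjusted p down to 0.0190). MAT2A, which makes S-adenosylmethionine, had -0.32 (0.23), and AHCY, which hydrolyses S-adenosylhomocysteine, had -0.10 (0.18). Among 16 other genes of methionine and cysteine, 2 were higher and 3 lower, with 11 not passing (median 0.12). MTRR, which reactivates MTR, was lower, with -1.59 (0.17). MMACHC, which processes the vitamin B12 that MTR needs, was higher by 0.99 (0.17). AHCYL2, a relative of AHCY, was higher by 1.28 (0.19), and KYAT1, a kynurenine aminotransferase, had -0.71 (0.16).

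In the TCA cycle, the NADP-linked isocitrate dehydrogenases were higher in KM12SM, and subunits of the NAD-linked enzyme were not. IDH1, the cytosolic enzyme, had 10.12, 10.25 and 10.25 in KM12SM and 8.05, 8.32 and 7.47 in SW620. It was 4.79-fold higher in KM12SM (log2 2.26, standard error 0.21, adjusted p = 4.85e-07 from limma). IDH2, its mitochondrial counterpart, had 9.45, 9.63 and 9.27 against 8.26, 7.99 and 7.79. The lines lay 1.01 apart at their nearest arrays, and IDH2 was 2.71-fold higher in KM12SM (log2 1.44, standard error 0.18, adjusted p = 1.80e-05 from limma). Of the NAD-linked enzyme, the regulatory subunits IDH3B and IDH3G had -0.55 (0.19, adjusted p = 0.0421 from limma) and -0.67 (0.22, adjusted p = 0.0379), and the catalytic subunit IDH3A had -0.29 (0.17) and did not pass. All 3 subunits were lower on every KM12SM array than on any SW620 array, by 0.09 to 0.20. Both calls depended on single arrays. IDH3B lost its call without replicate 1 or 2 of KM12SM or replicate 1 or 2 of SW620 (adjusted p up to 0.195). IDH3G lost it without replicate 3 of KM12SM or without any one SW620 array (up to 0.150). Its KM12SM values were 10.54, 10.72 and 9.75, so that replicate 3 was the lowest.

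After isocitrate, genes of the next steps were higher in KM12SM or did not pass, and subunits of succinate dehydrogenase were lower. OGDH, the first subunit of the 2-oxoglutarate dehydrogenase complex, had 10.17, 10.09 and 9.77 against 9.17, 9.25 and 9.10, a difference of 0.84 (0.17, adjusted p = 0.00172 from limma). DLST, its second subunit, had -0.02 (0.17). SUCLA2, the ADP-forming subunit of succinyl-CoA ligase, had 10.10, 10.14 and 10.19 against 8.86, 9.21 and 8.82. It was 2.27-fold higher in KM12SM (log2 1.18, standard error 0.17, adjusted p = 7.58e-05 from limma). SUCLG2, the GDP-forming subunit, was higher by 0.79 (0.19, adjusted p = 0.00441 from limma), while SUCLG1, the partner that both share, had -0.15 (0.24). SDHA and SDHC, subunits of succinate dehydrogenase, had -0.52 (0.16, adjusted p = 0.0274 from limma) and -0.65 (0.20, adjusted p = 0.0245), and SDHD, another subunit, had -0.03 (0.21). SDHA lost its call without replicate 1 or 2 of either line (up to 0.0981), and SDHC without replicate 1 or 3 of KM12SM or replicate 1 or 2 of SW620 (up to 0.122). CS, citrate synthase, had -0.20 (0.18), and the malate dehydrogenases MDH1 and MDH2 had 0.14 (0.18) and 0.17 (0.20). ACO1, the cytosolic aconitase that also binds iron-responsive RNA, had 0.58 (0.20, adjusted p = 0.0429 from limma). It was no longer called without any one KM12SM array or without replicate 1 or 3 of SW620 (up to 0.129), and its SW620 values of 7.78, 8.03 and 7.24 were spread out.

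The entry of pyruvate was also divided. Of 18 other genes of the cycle and of pyruvate dehydrogenase, 5 were higher and 4 lower, with 9 not passing (median 0.22). PDK3, a kinase that inhibits pyruvate dehydrogenase, was higher by 1.40 (0.27), PDK2, another such kinase, by 0.89 (0.19) and MPC1, a subunit of the mitochondrial pyruvate carrier, by 0.98 (0.17). PDHX, a structural subunit of the complex, had -0.88 (0.18). PDP1, a phosphatase of pyruvate dehydrogenase, was also higher, by 0.56 (0.18, adjusted p = 0.0351 from limma). PDHA1, another subunit, was lower, with -0.62 (0.21, adjusted p = 0.0415). PDP1 lost its call without any one KM12SM array or without replicate 1 or 3 of SW620 (up to 0.111). PDHA1 lost it without replicate 3 of KM12SM or replicate 1 or 2 of SW620 (up to 0.170).

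PC, pyruvate carboxylase, was lower in KM12SM, and the malic enzymes were higher. PC, which makes oxaloacetate from pyruvate, had 6.42, 6.21 and 6.94 in KM12SM and 7.32, 7.47 and 7.71 in SW620. The difference was -0.98 (0.20, adjusted p = 0.00182 from limma), a 1.97-fold higher level in SW620. ME1, the cytosolic malic enzyme, and ME2 and ME3, the mitochondrial ones, release pyruvate from malate. ME1 was higher by 0.56 (0.18, adjusted p = 0.0277 from limma) and ME2 by 0.64 (0.19, adjusted p = 0.0228). ME3, one of the other cycle genes, was higher by 0.54 (0.18, adjusted p = 0.0378) and lost the call without replicate 1 or 2 of either line (up to 0.172). ME1 and ME2 lost the call without replicate 2 of KM12SM or replicate 1 or 3 of SW620, ME1 also without replicate 1 and ME2 without replicate 3 of KM12SM (adjusted p up to 0.101 and 0.0785). PCK1 and PCK2, the cytosolic and mitochondrial enzymes that make phosphoenolpyruvate, had 0.19 (0.19) and 0.21 (0.17) and did not pass.

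Of 4 measured genes of glutamine and glutamate, GLUL was called. GLUL, glutamine synthetase, had 10.22, 10.13 and 9.83 in KM12SM and 9.52, 9.42 and 9.09 in SW620. It was higher in KM12SM by 0.72 (0.18, adjusted p = 0.00814 from limma), and lost the call without replicate 1 of KM12SM (adjusted p = 0.0507). GLUD1, glutamate dehydrogenase, had -0.24 (0.17). The aspartate aminotransferases went apart without passing, the cytosolic GOT1 with 0.36 (0.17, adjusted p = 0.140 from limma) and the mitochondrial GOT2 with -0.65 (0.24, adjusted p = 0.0609). In GOT2, replicate 3 of KM12SM was at 9.45, and the other KM12SM arrays were at 10.57 and 10.41. GOT2 passed without replicate 1 or without replicate 2 of KM12SM (adjusted p down to 0.0220). Of 9 other genes of glutamine, proline, asparagine and alanine, 3 were higher and 6 did not pass (median 0.28). These were ALDH4A1, which oxidises a proline intermediate to glutamate (0.67, 0.20), GFPT1, the first enzyme of hexosamine synthesis (0.64, 0.18), and PYCR3, a reductase of proline synthesis (0.58, 0.17). ALDH4A1 lost the call without replicate 1 or 2 of KM12SM or replicate 1 of SW620 (adjusted p up to 0.111 from limma). GFPT1 lost it without replicate 1 of KM12SM or replicate 3 of SW620 (up to 0.0753), and PYCR3 without replicate 2 of either line (up to 0.102).

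ASNS and PYCR1 were lower in KM12SM. ASNS, asparagine synthetase, had 9.12, 9.28 and 9.43 in KM12SM and 10.08, 9.99 and 9.94 in SW620. The difference was -0.73 (0.17, adjusted p = 0.00395 from limma), and the nearest arrays were 0.51 apart. PYCR1, the mitochondrial reductase that finishes proline synthesis, had 9.25, 9.46 and 9.15 against 10.00, 9.97 and 10.33. It was 1.76-fold higher in SW620 (log2 -0.81, standard error 0.18, adjusted p = 0.00253 from limma). PRODH, which starts proline breakdown, had 0.05 (0.17), and OAT, which converts ornithine, had 0.10 (0.18).

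SAT1 and SMS, of the polyamines, were lower in KM12SM. SAT1, which acetylates spermidine and spermine for export or breakdown, had 9.45, 9.73 and 9.57 in KM12SM and 10.60, 10.61 and 10.18 in SW620. It was 1.84-fold higher in SW620 (log2 -0.88, standard error 0.18, adjusted p = 0.00161 from limma). SMS, spermine synthase, had -0.52 (0.17, adjusted p = 0.0367 from limma) and lost its call without any one KM12SM array or without replicate 1 or 2 of SW620 (up to 0.169). SRM, spermidine synthase, had 10.45, 10.55 and 9.77 against 9.72, 9.89 and 9.51. Its difference of 0.55 (0.21) did not pass (adjusted p = 0.0705 from limma), and passed without replicate 3 of KM12SM (0.00645). In the arginine pathway, ASL, argininosuccinate lyase, had 8.62, 8.70 and 8.42 against 8.45, 8.18 and 8.27. The arrays overlapped, and neither ASL (0.28, 0.17) nor ASS1 (0.01, 0.17), the synthase before it, passed.

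GATM, which makes the creatine precursor from arginine and glycine, was higher in KM12SM. Its signals were 9.54, 9.49 and 9.82 in KM12SM and 4.55, 4.90 and 4.27 in SW620. The lines differed by 5.04 (0.19, adjusted p = 2.48e-11 from limma). The SW620 mean of 4.57 stood above 18.5% of the probe sets of that line, so it is near the background and gives GATM no clear level there, and the size of the difference may be limited by it. The lower means of STC2, in KM12SM, and ALDH1L2, in SW620, stood above 27.8% and 28.7% and were also near the background. Of 21 other genes of the urea cycle and polyamines, AGMAT was also higher, 4 were lower and 15 did not pass (median -0.09). The lower ones included ARG2, the mitochondrial arginase, with -1.30 (0.17), APIP, of methionine salvage, with -1.17 (0.16), and SMOX, spermine oxidase, with -1.16 (0.17).

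BCAT1 and BCAT2, the cytosolic and mitochondrial aminotransferases of branched-chain amino acids, did not pass. BCAT2 had 9.26, 9.51 and 8.85 in KM12SM and 8.83, 8.63 and 8.73 in SW620. The lines differed by 0.48 (0.19, adjusted p = 0.0824 from limma). Its arrays were apart by 0.02 only, and it passed without replicate 3 of KM12SM (adjusted p = 0.0164). BCAT1 had 4.35, 4.11 and 4.50 against 3.97, 3.94 and 3.66, under the 25th percentile of the probe sets in both lines, and so with no clear level in either. Of 16 genes of branched-chain breakdown, 7 were higher and 9 did not pass, with a median of 0.41. Their differences ran from 0.01 to 1.88. Among all probe sets, 12.6% were called higher and 12.4% lower. Of those with a mean log2 signal of at least 8, 35.6% were called in either direction. MCCC1, a subunit of the leucine-pathway carboxylase, was higher by 1.88 (0.20), BCKDHB, a subunit of the branched-chain dehydrogenase, by 0.89 (0.22) and IVD, isovaleryl-CoA dehydrogenase of the leucine pathway, by 0.88 (0.25). MMUT, the B12-dependent mutase of methylmalonyl-CoA, was higher by 0.77 (0.23). IVD lost its call without replicate 1 or 2 of KM12SM or replicate 3 of SW620, and MMUT without replicate 1 or 3 of KM12SM or replicate 3 of SW620 (adjusted p up to 0.0954 and 0.0750 from limma). BCKDHA and ACADSB, also of this list, were higher by 0.62 (0.18) and 0.71 (0.23). BCKDHA lost its call without replicate 1 or 2 of KM12SM or replicate 2 of SW620 (up to 0.0985). ACADSB lost it without replicate 2 or 3 of KM12SM or replicate 3 of SW620 (up to 0.124). The IVD arrays overlapped, with a lowest KM12SM value of 7.79 and a highest SW620 value of 7.81.

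Beside AARS1 and GARS1, the aminoacyl-tRNA synthetases, which charge tRNAs, mostly did not pass. Of 15 other cytosolic genes, 2 were higher and 3 lower (median -0.12). EPRS1, for glutamate and proline, was higher by 0.83 (0.18), while TARS1, for threonine, had -0.73 (0.18) and KARS1, for lysine, had -0.69 (0.17). Of 15 mitochondrial ones, IARS2, for isoleucine, was higher by 0.79 (0.18), FARS2 and NARS2 were lower and 12 did not pass (median -0.09). FARS2, for phenylalanine, had -0.69 (0.18) and NARS2, for asparagine, had -0.66 (0.19). FARS2 lost its call without replicate 1 of SW620 (adjusted p = 0.0505 from limma), and NARS2 without replicate 1 or 3 of KM12SM or replicate 2 of SW620 (up to 0.0811). Over the 9 lists of other pathway genes, 55 of 152 (36.2%) were called, 30 higher and 25 lower. The share was 25% over all probe sets and 35.6% over those with a mean log2 signal of at least 8. Without replicate 1 of KM12SM, 36 of the list genes were called.

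Some members form pairs that catalyse like reactions in different compartments or with different nucleotides. For 8 pairs, the log2 difference between the enzymes on each array was compared between the lines by an exact permutation test (two-sided), whose smallest p with 3 arrays against 3 is 0.1, so that no pair could pass. The value reached 0.1 for 4 pairs (adjusted p = 0.2 over the 8). MTHFD1 minus MTHFD1L was 1.43 larger in KM12SM (standard error 0.10), GOT1 minus GOT2 was 1.01 larger (0.33) and IDH1 minus IDH2 was 0.82 larger (0.23). SUCLG2 minus SUCLA2 was -0.39 (0.09). For MDH1 and MDH2, PCK1 and PCK2, ME1 and ME2, and BCAT1 and BCAT2, the values were -0.08 to -0.01, with standard errors of 0.13 to 0.32.

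**Figure D4:**
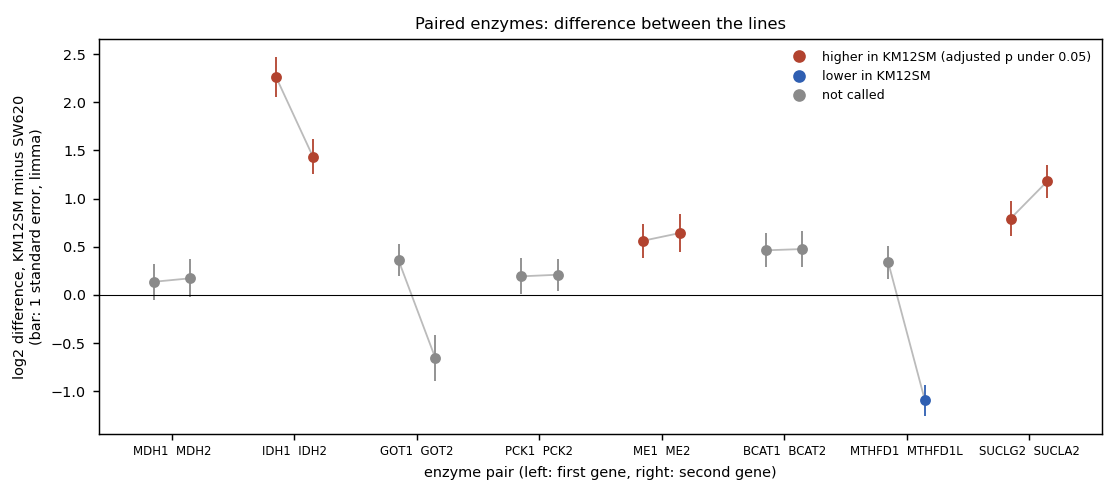
Log2 difference (KM12SM minus SW620, vertical axis, bar 1 standard error from limma) of the enzymes of 8 pairs, the first gene of each name on the left and the second on the right. MTHFD1 (0.34) and MTHFD1L (-1.09) lie furthest apart, and ME1 (0.56) and ME2 (0.64) lie close together.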

How the data were processed

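RNA of KM12SM and SW620 cells was measured on 6 Clariom S human arrays, 3 per line, each mapped to line and replicate number by its sample title. The authors deposited log2 signals from the RMA algorithm of Transcriptome Analysis Console (version not given in the sources used here), rounded to 2 decimals, for 21448 probe sets (2.36 to 13.79), and these were used as they stand. RMA shares a background model and distribution over the arrays, so dim genes have compressed folds. The number of arrays limits the precision (median standard error 0.18).

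The lines were compared with limma 3.58.1 in R 4.3.3 by lmFit and eBayes, the test that the supplementary methods name. The tests were two-sided, took in every probe set with no filter or replicate block and used Benjamini-Hochberg adjusted p-values at 0.05, which the methods do not state. The code was tested on simulated arrays. The annotation gives 1 symbol to 17709 probe sets, and for CBS the brighter probe set stood for the gene. Members, lists, ATF4 targets and sequences were chosen with earlier results of these data known. The ATF4 targets and the printing of MTHFD1L were chosen after the values were seen. Signals are printed for called members of at least 2-fold with no overlap and the largest difference of each role, and for others where a result turns on them. Of each other list, up to 4 called genes are named, the largest differences first. AGMAT, ME3, MTHFD2L, PDP1, PDHA1, BCKDHA, ACADSB, the SDH subunits and the EIF2AK kinases are named beside them, after their values were seen. Promoters come from the RefSeq table (GRCh38.p14).

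Alternatives were quantile normalization, median centring, a filter on dim probe sets (25th percentile), a replicate block, eBayes trend and robust, array weights, the two-sample t-test that the methods name for expression differences between groups, averaging a gene's probe sets, and leaving out each array or replicate 3 of both lines.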

Additional observations from a re-analysis of the deposited data

How the results depend on the processing

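Of the 24 called members, 11 kept their call and direction under every alternative tried, 13 lost the call under at least 1 and 9 of these on leaving out an array. No called member changed sign. Of the 27 members not called, 11 passed under at least 1 alternative. ATF4, MTHFD1, PSPH, GOT1 and BCAT1 passed with array weights and with the unadjusted t-test of the methods. With array weights, 18 members were called higher and 17 lower, and 10078 probe sets and 84 genes of the other lists were called, against 5362 and 55. Under the t-test of the methods, 14 members were higher and 13 lower at an unadjusted p under 0.05, with 6405 probe sets called. Adjusted by Benjamini-Hochberg, 6 members were higher, 6 lower, and 3038 probe sets and 28 list genes were called. Leaving out each array in turn gave 9 to 13 members higher, 7 to 12 lower, 4099 to 5428 probe sets and 36 to 50 list genes. The replicate block gave 14 members higher and 13 lower, with 5681 probe sets called. The samples share only a number: the deviations of same-numbered arrays correlated at 0.06, 0.10 and 0.15, and 4 of 6 arrays correlated best with their own number. Leaving out replicate 3 of both lines gave 13 and 11 members.

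Uncalled values near 0 changed sign. PRODH was -0.01 with quantile normalization and -0.071 with array weights, ASS1 -0.0333 with centring, AHCY 0.0045 and OAT -0.0429 with array weights. Without replicate 3 of both lines, AHCY was 0.12 and OAT -0.08. On leaving out 1 array, DLST ran from -0.105 to 0.055, SUCLG1 from -0.38 to 0.12, MDH1 from -0.0083 to 0.26, AHCY from -0.20 to 0.0617, PRODH from -0.03 to 0.10, OAT from -0.04 to 0.20 and ASS1 from -0.065 to 0.135. The MDH1 minus MDH2 difference ran from -0.1167 to 0.0733, the PCK1 minus PCK2 difference from -0.1883 to 0.1517, the ME1 minus ME2 difference from -0.185 to 0.09 and the BCAT1 minus BCAT2 difference from -0.2817 to 0.2433. PCK1 minus PCK2 was 0.0011 with quantile normalization, and ME1 minus ME2 was 0.145 without replicate 3 of both lines. The cause was not tested. Array signals give no counts, and a gene near background has no measurable fall.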
